A study of Mus musculus with 23 samples.

Results

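To describe the RNA positions at which CTCF iCLIP2 gave a crosslink site whatever the cell type and whatever the rescue protein, the 4771 sites common to all 4 UV-crosslinked site lists were examined. A site belonged to this set when it was in the ESC WT list on chromosomes 1 to 19, X or Y, had a site on the same strand within 5 nt in each of the ESC ΔZF1, NPC WT and NPC ΔZF1 lists, and had no site within 5 nt in either list made without UV. The set held 1.06% of the 451137 sites of the ESC WT list. The sites were thus chosen by their positions in the 6 lists, and no count of membership is given below as evidence of anything else.

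CTCF is a DNA-binding zinc finger protein that stops loop extrusion by cohesin at chromatin loop anchors, and it also binds RNA. In iCLIP2, UV light links a protein to the RNA bases it touches, the protein is purified, and reverse transcription tends to stop beside the linked base, so that the start of a read marks the crosslink. UV light at this wavelength links uridine more readily than the other bases, and truncations that need no UV, at RNA ends, structures and modified bases, are what a control without UV records. The study used the E14 line of mouse embryonic stem cells (ESCs). Their endogenous CTCF carries the AID2 degron and was degraded with 1 µM 5-Ph-IAA, while 1 µg/mL doxycycline induced a Flag-tagged rescue CTCF for 24 hours. All 6 groups, controls included, shared these treatments. The rescue was wild type (WT) or the zinc finger 1 mutant (ΔZF1), and neural progenitor cells (NPCs) were differentiated from the ESCs for 2 days. ESC WT, ESC ΔZF1 and NPC ΔZF1 had 4 libraries each and NPC WT had 3, from cells given 400 mJ/cm2 of UV at 254 nm. Each cell type also had 4 libraries not exposed to UV (noXL), all from the WT rescue line, so no ΔZF1 control was analysed here.

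The libraries of a group had been merged before sites were called, so each group was 1 list. No replicate error and no test between groups could be had, and the intervals given after shares are 95% Wilson binomial intervals, or Newcombe intervals for differences, which cover counting error only and treat neighbouring sites as independent. The read depth behind the lists is unknown. Besides the 451137 sites of ESC WT, there were 239258 in the NPC WT list, 231636 and 158490 in the ESC and NPC lists of ΔZF1, and 158968 and 107227 in those of noXL. The 8 ESC marker genes checked, among them Pou5f1, Nanog and Esrrb, held 1263 sites in the ESC WT and 51 in the shorter NPC WT list, though Dppa5a was near even at 8 and 7. Of the 7 NPC markers, Nes had 2 ESC WT and 28 NPC WT sites, Sox2 had 35 and 9, and the other 5, Sox1, Pax6, Hes5, Zic1 and Fabp7, had none in either list, so 5 of 7 defining NPC markers were absent from both lists. None of these 15 marker genes held a common site, although Esrrb had 460 and Tfcp2l1 had 343 ESC WT sites.

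The sequences below are those of the 10 common sites that ranked highest in all 4 UV lists at once, taking for each site the lowest of its 4 rank percentiles of score, with 1 site per gene. They are shown because they were the top of the set by score. Each run is 29 bases of the mm10 reference, 5′ to 3′ on the strand of the site. The base under the site is in capitals, and T stands for uridine.
Site in no annotated gene, chr1:122357223-122357251, minus strand: cagccccaggcttgGgtcttcccggagtc
snRNA gene Gm26316, chr11:101604926-101604954, plus strand: ccgaggacaatataTtaaatggatttttg
Rpph1, chr14:50807597-50807625, minus strand: acgcttgggcagacTgggcaggagaagcc
Rprl3, chr8:3803315-3803343, minus strand: tcagcagggccacgTgctgagtgctcgtc
Gm19951, chr12:99645560-99645588, plus strand: gcgtagaatgcgagTgcctagtgggccac
tRNA-Asp gene n-TDgtc16, chr10:91182122-91182150, minus strand: ttagtatccccgccTgtcacgcgggagac
Scarna2, chr3:108554657-108554685, minus strand: gcctttgggctgaaTgcgagtatggatat
Gm48099, chr14:19278130-19278158, plus strand: aaggttcatgactcTgacactcatcagac
Snora73b, chr4:132352419-132352447, minus strand: atgtacagtcccttTccacaacgttggag
Zfp791, chr8:85111944-85111972, minus strand: gaacctggcgctaaAcgtagacgacctgc

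Short noncoding RNA genes held 6 of these 10 sites. The other sites lay in no annotated gene or in introns of Gm19951, Gm48099 and Zfp791, whose names mark the position only, and whether these sequences are copies of another RNA, such as rRNA, was not tested. Rpph1 is the RNA of RNase P, which trims the 5′ ends of pre-tRNAs, and its site was at the highest score of the lists, 708, in all 4 UV lists and on the same nucleotide in each. Rprl3, an RNase P RNA-like copy, had scores of 484 (ESC WT), 515 (ESC ΔZF1), 609 (NPC WT) and 448 (NPC ΔZF1), with its nearest noXL site 48842 nt away. Scarna2, a small Cajal body RNA, had scores of 370, 331, 285 and 173 in the same order, with NPC ΔZF1 lowest. Snora73b, a small nucleolar RNA, had 208, 229, 215 and 183. The site in the tRNA-Asp gene had 708, 326, 518 and 647, highest in ESC WT and lowest in ESC ΔZF1. Of the 10 sites, 8 were on uridine, and 1 each on G and A.

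Both criteria of the rule removed many sites. Within 5 nt of an ESC WT site, the ESC ΔZF1 list had a site in 16.2% of cases, NPC WT in 17.8% and NPC ΔZF1 in 8.45%. All 3 had one at 11040 sites, or 2.45% of the ESC WT list, and 6269 of these also lay within 5 nt of a noXL site. The common sites formed 2647 clusters when neighbours within 8 nt were joined. Of these clusters 1380 held a single site, and the largest held 9. At 1072 common sites (22.5%) all 4 lists named the same nucleotide. Sites whose farthest partner was at 5 nt, just inside the limit, numbered 471, with 60.7% on uridine and a median score of 5.07, and the 579 sites just outside it at 6 nt had 60.8% and 4.98.

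The base under the site was uridine at 3312 of the 4771 common sites, 69.4% (68.1 to 70.7), against 59.8% (59.7 to 59.9) of the other 446366 ESC WT sites. The difference was 9.62 percentage points (8.29 to 10.9), and uridine was under 59.9% of the whole ESC WT list. The other 3 bases were each less frequent at common sites, with C at 11.9% against 16.6%, G at 10.4% against 12.2% and A at 8.28% against 11.5%. In the noXL lists uridine was under 28.3% of ESC and 27.9% of NPC sites. Uridine was more frequent with a larger number of UV lists that shared a site, as long as no noXL site was near. It was at 59.7% of sites found in no other UV list, 66.3% with 1 other list, 70.4% with 2 and 69.4% with 3, so the step from 2 to 3 lists brought no further rise. Where a noXL site lay within 5 nt the order turned around, from 51.8% with no other list to 48.1%, 38.6% and 32.9%. The direction of the uridine difference therefore rested on the removal of sites near noXL sites. Its size also depended on the matching distance, with 3.26 points when the lists had to name the same nucleotide and 5.46 points at 10 nt, and with a score minimum, described below, its interval held 0.

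**Figure D1:**
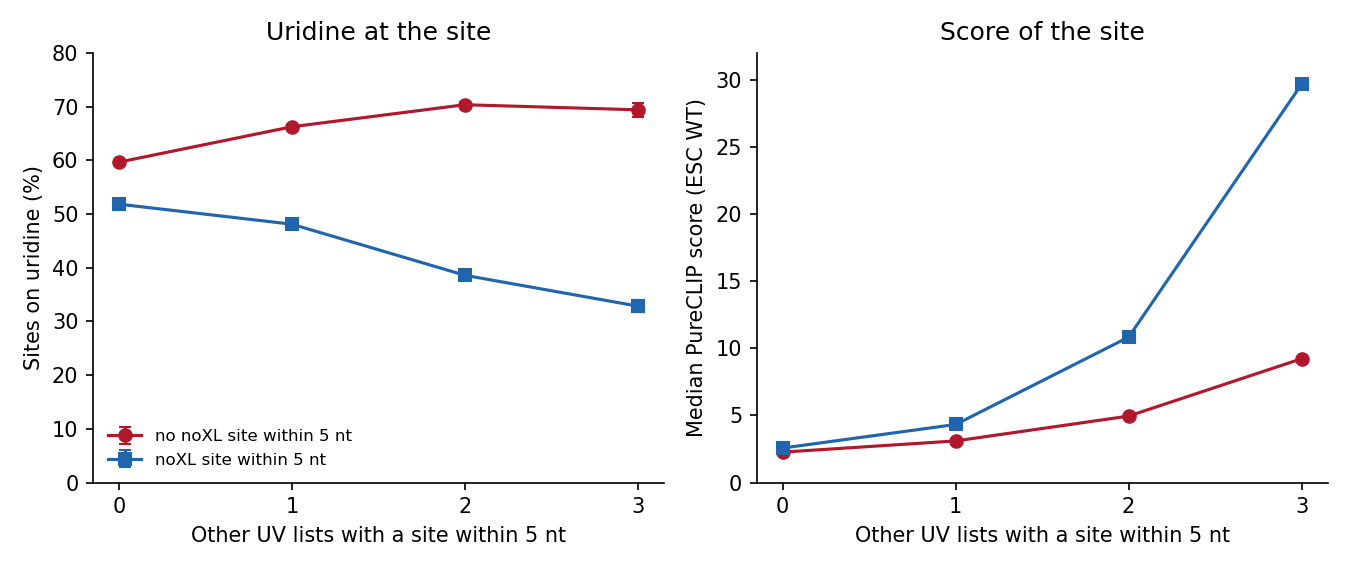
Share of ESC WT sites on uridine (left, %, bars are 95% Wilson intervals) and median PureCLIP score (right) against the number of other UV lists with a site within 5 nt, for sites without (red) and with (blue) a noXL site within 5 nt. The common sites are the red points at 3 lists, at 69.4% uridine and a median score of 9.23, while their counterparts near noXL sites are at 32.9% and 29.7.

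Uridine was also more frequent beside the common sites, and mainly on the 5′ side. One base upstream it was at 60.6% of common and 48.9% of other sites, and 1 base downstream at 44.96% and 36.3%. From 6 to 15 nt downstream it was lower at common sites, between 19.6% and 21.5%, than at other sites, between 25.5% and 28.2%. The whole flank of 10 nt on either side therefore had nearly the same uridine content, 29.02% against 29.5%. A run of 4 or more uridines held the site in 26.2% (25.0 to 27.5) of common and 14.3% (14.2 to 14.4) of other sites, and a lone uridine in 8.57% and 15.4%. Within 10 nt on either side on the strand of the site, TTTT occurred in 30.3% and 20.7%, and TTTTT, which overlaps it, in 15.9% and 8.89%. Of the noXL sites, 10.7% in ESCs and 10.9% in NPCs had TTTT. TGTGT was rarer around common sites, 2.41% (2.01 to 2.89) against 3.93%, and so was GTGTG, 1.74% against 2.87%. For TCTTC, for CTTCT, for GAAGA and for the splice donor string AGGTAAG the interval of the difference held 0. The most frequent pentamers centred on common sites were TTTTT at 5.53%, against 2.77% of other sites, TTTTG at 2.87% against 1.31%, TTTTA at 2.64% against 1.33% and TTTGA at 2.52% against 1.21%.

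**Figure D2:**
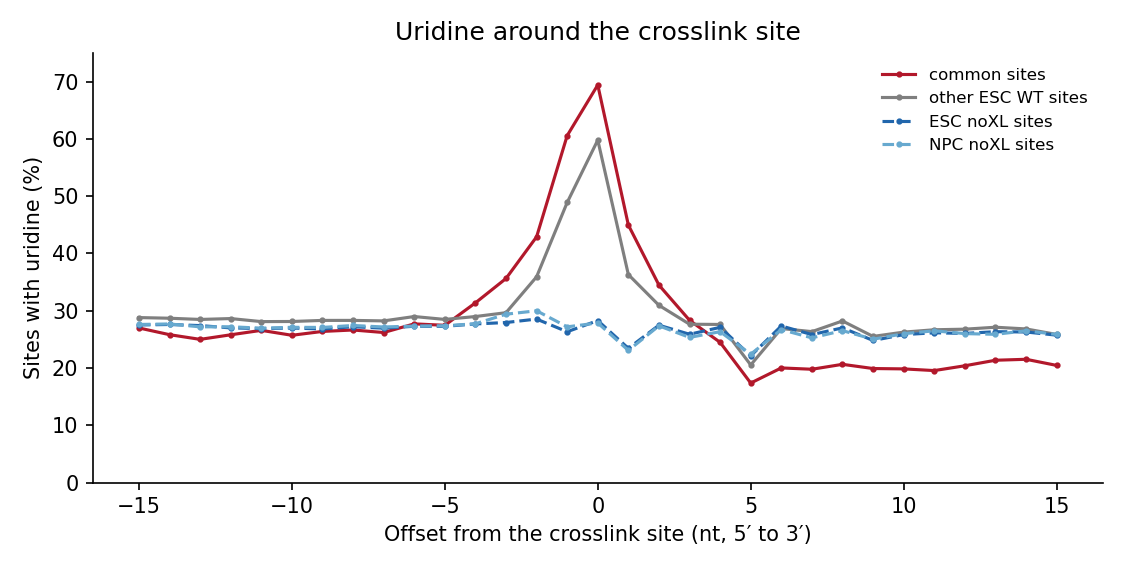
Share of sites with uridine (%) at each offset from the crosslink site (nt, negative is 5′), for common sites, other ESC WT sites and the 2 noXL lists. The curve of the common sites peaks at 69.4% on the site and stays above that of the other sites from 4 nt upstream to 3 nt downstream, while both noXL curves stay between 22.1% and 30.0% at every offset.

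Common sites lay in mature transcript sequence far more often than other ESC WT sites, and in introns far less often. Only 383 of them, 8.03% (7.29 to 8.83), were in introns, against 36.2% (36.04 to 36.3) of the other sites and 35.9% of the whole list. Coding exons held 47.3% (45.9 to 48.7) against 34.5%, 5′ UTRs 13.2% (12.3 to 14.2) against 7.48%, and exons of noncoding genes 5.62% (5.00 to 6.31) against 1.45%. The 3′ UTR share was lower, 10.3% (9.50 to 11.2) against 15.6%. Intergenic sequence held 12.995% (12.07 to 13.98) against 3.79%, and the antisense strand of genes 2.56% against 0.979%. Put the other way round, 0.237% of intron sites were common, compared with 1.44% of coding, 1.85% of 5′ UTR and 3.99% of noncoding exon sites. The intron share was lower with each further list that shared a site, from 44.6% of sites in no other UV list to 22.6%, 11.2% and 8.03%, all away from noXL sites. Near noXL sites it was 27.3%, 17.97%, 10.95% and 13.2% in the same order, so a low intron share was also found at shared positions seen without UV. RNA abundance was not measured here, and in these bulk samples abundance and binding, or fewer cells of a type and less RNA per cell, cannot be told apart.

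The interval of the uridine difference lay above 0 in each class of exon and held 0 in introns, and whether the classes differed from each other was not tested. In coding exons 83.0% (81.4 to 84.5) of the 2256 common sites were on uridine, against 59.7% of other coding sites, a difference of 23.4 points (21.7 to 24.9). In 3′ UTRs it was 87.8% (84.6 to 90.4) against 70.9%, in noncoding exons 69.8% against 56.8%, and in 5′ UTRs 41.5% (37.7 to 45.4) against 35.2%. In introns the 383 common sites had 60.6% (55.6 to 65.3) and the others 62.2%, a difference of -1.67 points with an interval from -6.65 to 3.10. The intervals of the differences in intergenic and antisense sequence held 0 as well. The other sites of each part still included those near noXL sites, which the rule removed from the common sites alone. A comparison without them was made only over all parts, where the difference was 7.81 points.

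**Figure D3:**
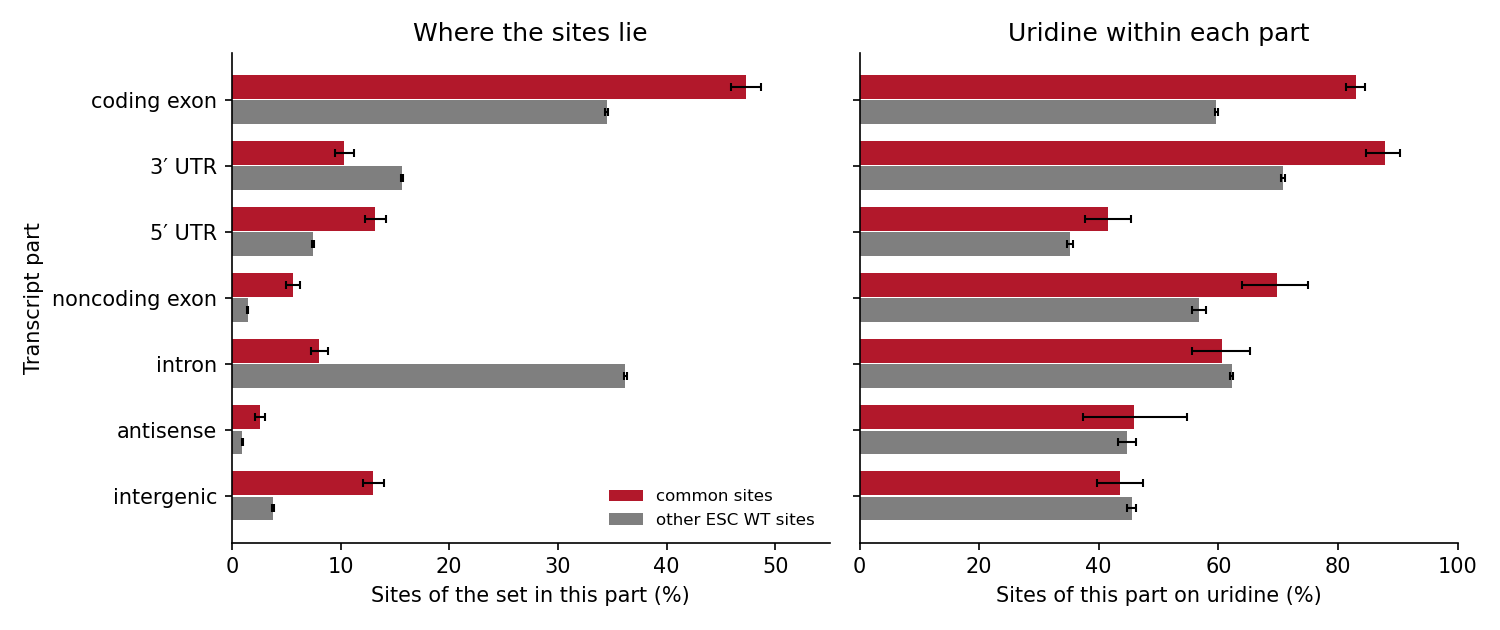
Left, share of common (red) and other ESC WT (grey) sites in each transcript part (%). Right, share of the sites of each part that were on uridine (%). Bars are shares and lines their 95% Wilson intervals. Introns held 8.03% of common and 36.2% of other sites, and the uridine shares stand farthest apart in coding exons, at 83.0% and 59.7%.

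Common sites had higher PureCLIP scores, which rank the evidence for a site within a list. Their median in the ESC WT list was 9.23 with quartiles of 3.34 and 24.6, against 2.54 with quartiles of 0.875 and 6.0003 for the others, and 79.8% (78.7 to 81.0) of them exceeded the median of the others. Of the ESC WT sites in the top score decile 4.38% were common, and these 1975 sites made up 41.4% of the set, but 152 and 113 common sites came from deciles 1 and 2, the lowest. The partner sites also scored higher than the rest of their own lists, with medians of 7.10 against 2.37 in NPC WT, 6.61 against 2.71 in ESC ΔZF1 and 6.67 against 3.81 in NPC ΔZF1. By transcript part the median was 31.2 for intergenic common sites, 22.4 for noncoding exons, 10.2 for 5′ UTRs, 8.48 for introns, 7.02 for coding exons and 6.57 for 3′ UTRs. Across the common sites, which are not independent replicates, the score in ESC WT and the best partner score had Spearman correlations of 0.48 with ESC ΔZF1, 0.49 with NPC WT and 0.32 with NPC ΔZF1. In each of the 10 score deciles the common sites had the higher share, by 7.36 to 14.2 points, and every one of these intervals lay above 0. Those of deciles 2 and 5 came close to it, with lower ends of 0.893 and 0.146. With a score minimum of 3.02 applied to all lists before sites were matched, however, the difference over the set was 0.551 points with an interval from -1.47 to 2.53, and with the minimum in the UV lists alone it was 2.39 (0.267 to 4.46).

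**Figure D4:**
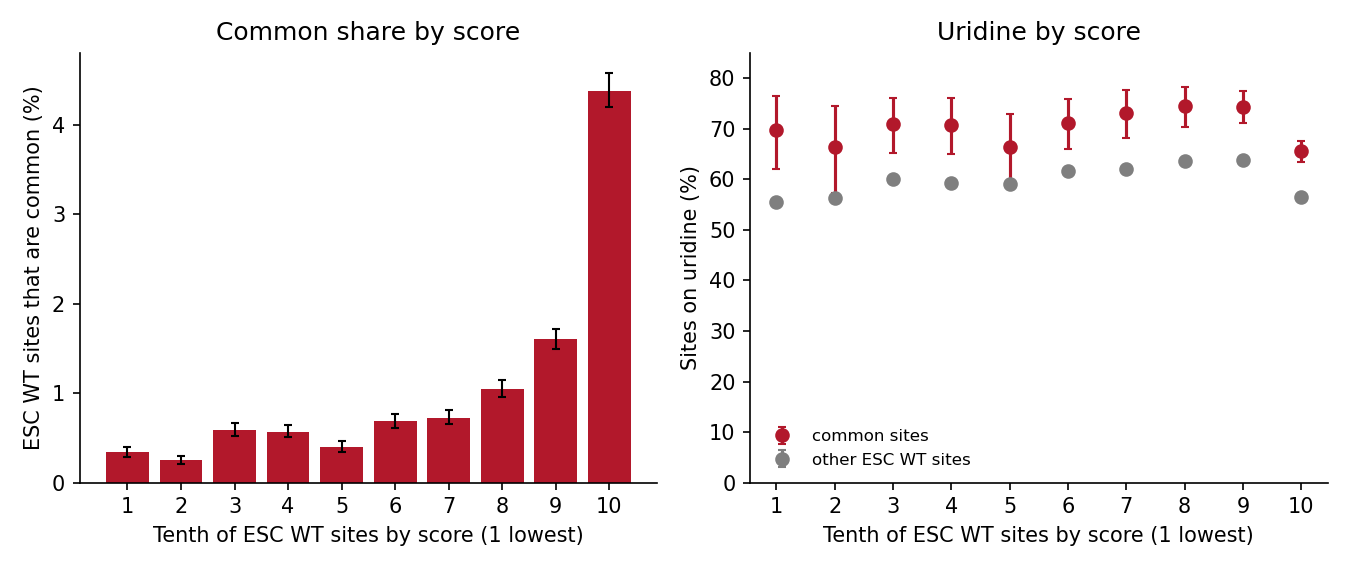
Left, share of ESC WT sites that were common (%) in each decile of the list by score, with 95% Wilson intervals. Right, share of sites on uridine (%) for common (red) and other (grey) sites of the same decile. The common share is 0.337% in the lowest and 4.38% in the highest decile, and the red points lie above the grey ones in all 10.

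Genes of short noncoding RNAs held 403 common sites, 8.45% (7.69 to 9.27) of the set, against 0.610% of the other sites. The share was higher still, 15.4%, among the sites of all 4 UV lists that had a noXL site within 5 nt. For tRNA genes alone it was lower there, 3.33% against 5.16% of the common sites. The tRNA genes led with 246 common sites in 143 of the 403 annotated tRNA genes, so that 22.1% (19.8 to 24.7) of all ESC WT sites in tRNA genes were common, against 1.06% of all sites. Genes of 5S rRNA, the small RNA of the large ribosomal subunit, held 27, or 38.6% (28.0 to 50.3) of their 70 sites. Copies of U6, the snRNA of the spliceosome's catalytic core, held 75, or 13.8% (11.2 to 17.0). Small nucleolar and Cajal body RNAs held 31, a lower 3.12% (2.21 to 4.39). All 42 sites in 7SK RNA copies were outside the set, but NPC ΔZF1 had no site there and so no 7SK site could meet the rule. The tRNA genes made up 0.246% of the ESC WT list, 0.296% of ESC ΔZF1, 0.304% of NPC WT, 0.233% of NPC ΔZF1, 0.121% of ESC noXL and 0.103% of NPC noXL, higher in each UV list than in either noXL list. The snoRNA and scaRNA genes did not follow this order, with 0.220% in ESC WT, 0.277% and 0.237% in the ESC and NPC lists of ΔZF1 and 0.328% in NPC WT, against 0.283% in ESC noXL and 0.325% in NPC noXL. Because tRNA genes were taken from RefSeq and are not in the GENCODE gene annotation used here, 205 of the 620 intergenic common sites were in fact in tRNA genes. Of the remaining intergenic sites, 31 matched the 4.5S RNA described below, 60 were on chromosome Y. In no short RNA gene and no 4.5S match were 378 intergenic common sites, of which 55 lay within 30 nt upstream of an annotated transcript start, against 3033 of 15923 other intergenic sites, a larger part of those. The sequences below are the highest-ranking common sites of the tRNA genes, besides the one printed above, and of the other short RNA families.
tRNA-Ser gene n-TSgct6, chr19:5038323-5038351, minus strand: ctaatccattgtgcTttgcacgcgtgggt
tRNA-Leu gene n-TLtag1, chr7:120835480-120835508, minus strand: atggcgtgggttcgAatcccaccgctgcc
U6 copy Gm25935, chr17:93246769-93246797, minus strand: acatatactaaaatTggaaagatacagag
5S rRNA gene n-R5s33, chr16:33001924-33001952, plus strand: aacgtgcctgatctCgtctgatctcggaa
4.5S RNA-like copy, chr16:35876734-35876762, plus strand: cacactggtaggatTtgctgaaggaggca

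Within the tRNA genes the common sites were concentrated in a few places. Of the 246 sites, 90 fell between nt 51 and 65 of the gene, where the T arm lies, and 82 between nt 31 and 40, around the anticodon. These were 36.6% and 33.3% of the common tRNA sites, against 13.2% and 26.2% of the other ESC WT sites in tRNA genes, so the common sites stood further from the others in the T arm than around the anticodon. The T arm site was on A at 80 of 90 positions and on uridine at 6. Over the whole gene 85 sites were on the last A of the strings TTCGA or TTCAA, as in the tRNA-Leu sequence above, and 42.9% of the 198 ESC WT sites on this A were common. In tRNA genes this A was under 198 of all 1111 ESC WT sites, and without UV under 44 of 193 ESC and 20 of 110 NPC sites. Sites on this A were thus also called without UV, and which common ones needed UV was not tested. Around the anticodon 37 of the 82 sites were on uridine. Over all tRNA sites uridine was at 65 of 246, or 26.4%, below the 38.2% of the other ESC WT sites in tRNA genes and so opposite to the whole set, and the set without any short RNA gene had 72.02% (70.7 to 73.3). Threonine tRNA genes had most common sites, 30 of their 88, followed by glutamate with 19 of 59 and arginine with 18 of 99, while glycine had 4 of 69. U6 sites were on uridine at 68.0% and had a median score of 28.7, while tRNA sites had a median of 46.3.

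For part of the short RNA sites the assignment to a single copy is uncertain, because the sequence around the site was shared between copies. Whether the longer reads map to a single place was not tested. The 21 nt around the site were identical to those of another common site in 208 cases, spread over 64 different sequences, and to those of any other ESC WT site in 7.29% of common and 1.23% of other sites. The 246 tRNA sites had 148 different windows and the 75 U6 sites had 54. How reads that map to several places were treated is not given in the sources used here. Some common sites lay in sequence resembling 4.5S RNA, a short rodent RNA transcribed by RNA polymerase III. Around 47 common sites a stretch of at least 15 nt matched the 174-nt gene Rn4.5s exactly, and 13.5% of the 347 ESC WT sites with such a match were common. Of the 47, 34 were intergenic or antisense, and 100% lay in repeats masked in the reference. Whether they came from 4.5S RNA or from other repeats with the same stretch was not tested. Processed pseudogenes, the copies of mRNAs inserted in the genome, also had a high share, with 78 of 783 sites or 9.96%.

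The 4029 common sites on the strand of a gene fell in 1720 genes, 16.4% of the 10491 genes with any ESC WT site. In 673 genes there was 1, in 202 there were at least 5, and in 17 at least 10. Of the 7962 genes with at least 1 site in each UV list, 21.6% held a common site. Without the removal of sites near noXL sites 2916 genes held a site shared by all 4 lists. Of the 317 genes with at least 200 ESC WT sites 142 had no common site. Against other sites in the same genes, common sites within genes had uridine at 74.1% (72.7 to 75.4) compared with 63.3%, a difference of 10.8 points (9.43 to 12.2) within the same set of genes.

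Among genes, the most common sites lay in Gm47283, a predicted gene at the end of chromosome Y (mm10, chrY:90784738-90816464), with 40 of its 284 ESC WT sites, 14.1% (10.5 to 18.6). All 40 were in introns and formed 16 clusters. The gene had 105 sites in ESC ΔZF1, 172 in NPC WT, 50 in NPC ΔZF1, 24 in ESC noXL and 15 in NPC noXL. Between 90717573 and 90812667 on that chromosome, 92 of the 721 ESC WT sites, 12.8%, were common. Whether this stretch has copies elsewhere in the genome was not tested, so the placement of its sites on Y and in this gene is uncertain. Chromosomes other than Y ranged from 0.767% to 2.01%. The highest of these, chromosome 13, held 96 common sites in tRNA genes, and without short RNA genes its share was 1.37%. Gm20388 came next with 19, but every one of them also lay in another gene on the same strand, so its count is uncertain.

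The next genes by count were all protein-coding. Huwe1, a HECT ubiquitin ligase, had 15 common sites among 1161 (1.29%, 0.785 to 2.12), of which 13 were in coding exons and 2 in introns. Hyou1, a chaperone of the endoplasmic reticulum, had 13 of 119, or 10.9% (6.50 to 17.8). Ddb1, a DNA damage sensor and ubiquitin ligase adaptor, had 12 of 160, Eif4g1, the scaffold of cap-dependent initiation, 12 of 175, Hspg2, the basement membrane proteoglycan perlecan, 12 of 252, and Dst, a cytoskeletal linker, 12 of 498. Cdh1, the epithelial cadherin of ESCs, had 11 of 119, all in coding exons and 10 on uridine, and its NPC lists held more sites, 238 for WT and 148 for ΔZF1, than the 67 of ESC ΔZF1. The sites of a gene were clustered, with 13 common sites of Hyou1 in 5 clusters and 12 of Rps4x in 4, so they are not independent of each other.

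Shares were ranked among the 148 genes with at least 50 ESC WT sites and 5 common ones, and some genes with fewer sites, given with the gene lists below, had higher shares. Rps4x, a protein of the small ribosomal subunit, had 12 of 66 sites common, 18.2% (10.7 to 29.1). Its lists held 20 sites in ESC ΔZF1, 41 in NPC WT, 19 in NPC ΔZF1, 13 in ESC noXL and 6 in NPC noXL, fewest without UV. Btf3, a subunit of the nascent polypeptide-associated complex, had 10 of 68 (14.7%), only 2 of them on uridine. Gpx4, the glutathione peroxidase that reduces lipid peroxides, had 7 of 53 (13.2%), Rpl21 7 of 57 (12.3%), H3f3a, which encodes histone H3.3, 6 of 50 (12%), and Rpl15 6 of 51 (11.8%). Rack1 and Rplp0 each had 6 of 54 (11.1%), all in coding exons, with 6 on uridine in Rack1 and 2 in Rplp0. At the other end, Kat6b, a histone acetyltransferase, had none among 1817 ESC WT sites, which allows a share of up to 0.165% by the limit of 3 counts in 1817 for a count of 0, or 0.211% as the upper end of the Wilson interval. It had 9 sites in NPC WT and 10 in NPC ΔZF1, and Pias2, a SUMO ligase, with none of 794, had 52 and 49, so few NPC sites were there to match. Atrx, a chromatin remodeller, had none of 966 although it had 299 ESC ΔZF1, 300 NPC WT and 175 NPC ΔZF1 sites, and Kansl1 had none of 841 with 196, 354 and 155. Ranbp17 had none of 792, with 146, 185 and 77. The following are the best-ranked common sites of the genes named above for their number or share of common sites, leaving out Gm20388, and of the ribosomal protein genes Rps16 and Rpl37. They are shown so that the bases around the site can be compared. The site was on A in Rpl15, on G in Rpl37 and on uridine in the others. Some windows near exon starts hold intron bases, since they were read from the genome.
Gm47283, chrY:90801465-90801493, plus strand: ttttcattatttagTttttagacacaggg
Huwe1, chrX:151917540-151917568, plus strand: ttttcttgtagcttTtaccagtcgcctga
Hyou1, chr9:44381869-44381897, plus strand: ccgtgccagcctttTtcaaccaggctgag
Ddb1, chr19:10619280-10619308, plus strand: tcagcagactttctTttgtggcaacgtgg
Dst, chr1:34199329-34199357, plus strand: agatagaaaatcttTtgaactggctgtca
Eif4g1, chr16:20685508-20685536, plus strand: cagcctggttccatTgattctaacaacca
Hspg2, chr4:137535462-137535490, plus strand: agatggacggccctTgcccagcagcgctc
Rps4x, chrX:102186423-102186451, minus strand: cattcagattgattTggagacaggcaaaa
Cdh1, chr8:106666183-106666211, plus strand: ctaggactttgattTgagccagctgcaca
Btf3, chr13:98311001-98311029, minus strand: ggaaaagcacccctTgctactggagagga
Gpx4, chr10:80055033-80055061, plus strand: cagcaagatctgtgTaaatggggacgatg
Rpl21, chr5:146834235-146834263, plus strand: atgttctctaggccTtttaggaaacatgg
H3f3a, chr1:180810253-180810281, minus strand: taactttttaggccTggtactgtggccct
Rpl15, chr14:18270270-18270298, minus strand: gggatacaaggctaAgcaaggtgcgtgag
Rplp0, chr5:115560972-115561000, plus strand: actgagattcgggaTatgctgttggccaa
Rack1, chr11:48805973-48806001, plus strand: tttacagactctgtTtgctggctatacag
Rps16, chr7:28352384-28352412, plus strand: aggccctggtagctTattaccaaaaatgt
Rpl37, chr15:5116639-5116667, plus strand: tgctttctcttccgGtctctttggcctcg

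Scores at these positions differed between the lists. In the order ESC WT, ESC ΔZF1, NPC WT, NPC ΔZF1, the Rack1 site had 237, 179, 187 and 76.6. The Rps16 site had 242, 119, 187 and 143, highest in ESC WT. The Rps4x site had 139, 44.9, 79.9 and 8.06, with NPC ΔZF1 far below the others. The Huwe1 site went the other way in NPC ΔZF1, with 70.3, 27.5, 30.3 and 58.4. The Cdh1 site had 24.2, 31.5, 79.2 and 28.3, highest in NPC WT. The site of Rpl37, in its 5′ UTR and on G, had 382, 224, 234 and 96.7, and lay 10 nt from a noXL site. Scores are not scaled to depth, so these values describe the lists and not a difference in binding.

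By gene list, read against 0.939% of all genic ESC WT sites, cytosolic ribosomal protein genes had 151 of 3609 sites common, 4.18% (3.58 to 4.89), in 40 of 83 genes. Over all genes with any ESC WT site 16.4% held a common site, whereas the sizes of the lists count all members, with or without sites. Besides Rps4x and Rpl21, Rpl37 had 8 of 31 and Rps16 7 of 34. Actin and tubulin genes had 18 of 385, 4.68% (2.98 to 7.27), with 7 of 35 in Tubb2b and 5 of 35 in Actg1. Replication-dependent histones, whose mRNAs end in a stem-loop and not in poly(A), had 16 of 453, 3.53% (2.19 to 5.66), in 6 of 67 genes, a part of the genes below that 16.4%. Hist1h2bm held 6 of these sites, Hist1h3g 4 and Hist1h2an 3, in 1 cluster each, so the share of this list rested on few genes. Nucleolar proteins had 19 of 888, 2.14% (1.37 to 3.32), with 7 in Nop2 and 6 in Npm1, and translation factors 84 of 4062, 2.07% (1.67 to 2.55), with 6 each in Eif3d, Eif3e and Eif4b besides Eif4g1. Chaperones had 1.48% (1.03 to 2.11), an interval above 0.939% that held the 1.06% of all sites. The intervals of hnRNPs (1.19%), SR splicing factors (1.19%), glycolytic enzymes (1.34%), DEAD and DEAH box helicases (1.10%), HECT and related ubiquitin ligases (0.852%) and nuclear long noncoding RNAs (0.756%) all held 0.939%. Chromatin regulators were the one list whose interval lay below it, with 22 of 5989, 0.367% (0.243 to 0.556). Kat6b alone held 1817 of these 5989 sites. The list had 2083 NPC WT sites, against 230147 for the 429119 ESC WT sites over all genes, so fewer NPC WT sites were there to match per ESC WT site. The lists also differed in their sites without UV, with ESC noXL sites per 100 ESC WT sites ranging from 18.3 in histones and 22.6 in ribosomal protein genes to 35.7 in nucleolar proteins and 38.1 in chromatin regulators, against 35.1 over all genes and 25.9 and 27.5 in SR factors and hnRNPs, and the part of this in the shares was not tested. Among the SR splicing factors named, 6 of 6 common sites of Tra2b and 3 of 3 of Srsf10 were in introns, compared with 1 of 3 in Tra2a and none of the 3 in Srsf7, which lay in the 5′ UTR.

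**Figure D5:**
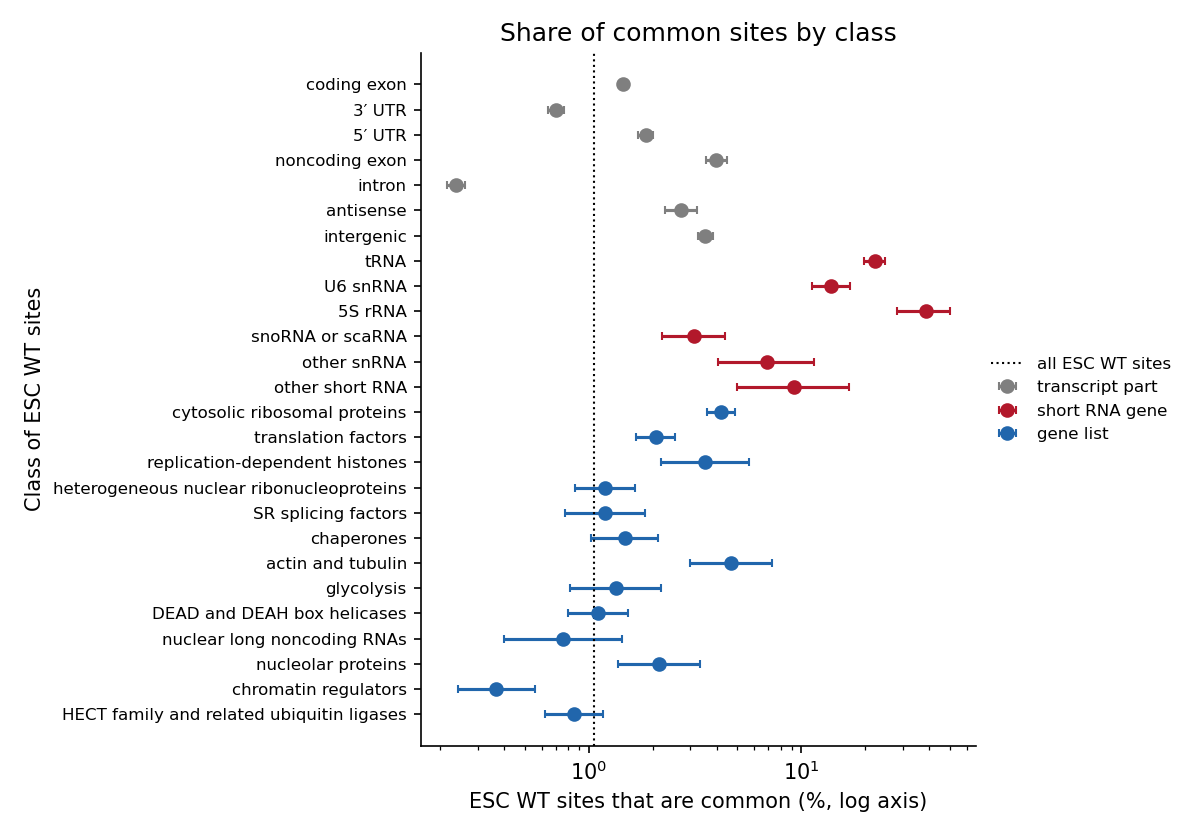
Share of ESC WT sites that were common (%, log axis) for transcript parts (grey), short RNA gene classes (red) and gene lists (blue) with at least 5 common sites. Lines are 95% Wilson intervals and the dotted line is 1.06%, the share over all ESC WT sites, whereas the gene lists are read in the text against 0.939% of genic sites. The 5S rRNA and tRNA genes are farthest to the right at 38.6% and 22.1%, and introns farthest to the left at 0.237%.

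Along transcripts, common sites were more often near annotated transcript starts and near exon starts and ends. Within 5 nt of an annotated transcript start lay 5.81% (5.18 to 6.51) of common and 3.09% of other sites, and 2.68% (2.26 to 3.18) against 1.36% were 1 to 3 nt upstream of one. The ESC and NPC noXL lists had 1.54% and 1.31% there, close to the 1.37% of the ESC WT list. Within 5 nt of the first base of a downstream exon lay 5.34% (4.74 to 6.02) against 2.66%, and within 5 nt of the last base of an upstream exon 2.58% (2.17 to 3.07) against 1.71%. The noXL lists had 2.21% and 2.08% near exon starts and 2.74% and 2.50% near exon ends. The windows of Huwe1 and H3f3a printed above are examples near an exon start. Of the intron sites, 9.92% (7.31 to 13.3) of the common and 4.46% of the other ones were within 50 nt upstream of an exon. The coding transcripts that held common sites were shorter, with a median length of 2928 nt over sites against 3822 nt for other sites. Repeats masked in the reference held 17.6% of common and 17.4% of other sites. The surroundings were more densely crosslinked, with a median of 4 ESC WT sites within 50 nt against 2, each site itself included, and 7.04% of common against 28.0% of other sites stood alone. A noXL site lay within 50 nt of 30.1% of common and 30.3% of other sites for ESCs, and of 18.9% and 18.2% for NPCs, although the rule had removed those within 5 nt from the common sites alone.

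The 6269 sites that all 4 UV lists shared but that had a noXL site within 5 nt differed from the common sites in base and score, and in part of their transcript positions. They were on uridine at 32.9% (31.7 to 34.0), with C at 26.0% and G at 27.6%, their median score was 29.7, and 34.9% lay in 5′ UTRs and 12.2% in coding exons. Like the common sites they were less often in introns, 13.2%, than the ESC WT list as a whole, and they were more often than the common sites in intergenic sequence, 23.002%, in noncoding exons, 7.59%, and antisense to genes, 4.94%. The distance to the nearest noXL site graded them. Uridine was at 28.2% of the 3113 with a noXL site on the same nucleotide, 38.0% at 2 nt and 49.4% of the 237 at 5 nt, just inside the limit, compared with 66.1% (57.0 to 74.1) of the 115 common sites at 6 nt, just outside it.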

How the data were processed

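From iCLIP2 reads of 23 libraries, the authors split barcodes and trimmed adapters (Flexbar), mapped to mm10 (STAR), collapsed duplicates sharing a molecular identifier (UMI-tools), and ran PureCLIP once per condition over its merged libraries. The deposited value is the PureCLIP score of each single nucleotide. The score is not scaled to depth, and depth is unknown. Groups came from the sample labels. Only chromosomes 1 to 19, X and Y entered the set. Distances were taken on the same strand. The reference was GRCm38 (the build of mm10), with GENCODE release M21 genes and, for short RNA genes with 5 nt added on each side, RefSeq. A site took the highest class it overlapped, in the order coding exon, 3′ UTR, 5′ UTR, exon of a noncoding gene, intron, antisense, intergenic. Genes named had most common sites (10), the highest share among genes with at least 50 sites and 5 common ones (10), the lowest share among genes with at least 200 sites (5, ties going to genes with more sites), or were the up to 4 members of a gene list with most common sites, at least 3 each. Members, lists and rules were chosen with earlier results of these data known, and the short RNA, chromosome Y, 4.5S and repeated-window counts, the tRNA positions and the sites printed per class and gene after seeing these values. Alternatives changed the distance, noXL removal, score minimum, clustering, annotation and comparison sites. The rule and intervals were tested on simulated data. Python 3.11.15, numpy 2.4.6, pandas 2.3.3, pysam 0.24.0 and matplotlib 3.10.9 were used.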

Additional observations from a re-analysis of the deposited data

Results flagged for a closer look

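Sequences outside chromosomes 1 to 19, X and Y were not part of the set, but also held sites that met the same rule. On the mitochondrial genome there were 5 among 171 ESC WT sites, 2.92% (1.26 to 6.66), and on unplaced or unlocalized scaffolds 8 among 587, 1.36% (0.692 to 2.67).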

How the results depend on the processing

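No paired analysis was possible because each group was deposited as 1 merged list, and for the same reason no replicate could be left out. The number of common sites was 1072 at 0 nt, 7743 at 10 nt, 11040 without removal near noXL sites, 2840 with removal within 50 nt, 2283 with a score minimum of 3.02 (the median over all lists) in all lists, 2031 with it in the UV lists alone, 2368 with 1 site per cluster, and 218.25 as the mean over 4 shifts of the other UV lists along the chromosome. The uridine difference turned to -11.5 points without removal near noXL sites. It was 3.26 at 0 nt, 5.46 at 10 nt, 0.551 (-1.47 to 2.53) with the score minimum in all lists, 2.39 (0.267 to 4.46) with it in the UV lists alone, 11.7 with 1 site per cluster, 12.2 without short RNA genes, 11.4 with windows found once, 6.13 for all common sites against other sites in genes with common sites, and 7.81 against other sites away from noXL sites. The causes were not tested. The intron difference kept its sign under all alternatives: -27.1 points at 0 nt, -25.5 without removal near noXL sites, -21.1 and -21.4 with the score minimum in all lists and in UV lists, -30.5 with 1 site per cluster, -26.8 without chromosome 11, -37.4 for all common sites, including those in no gene, against other sites in genes with common sites, -27.2 with introns before exons and -30.7 for uridine sites. The share of common sites above the median score of the others was 93.8% at 0 nt, 75.3% at 10 nt, 86.1% both without removal near noXL sites and with 1 site per cluster, 84.4% and 84.1% with the score minimum, 78.4% without short RNA genes and 78.6% with windows found once. Genes with common sites numbered 640 at 0 nt, 2916 without removal, 1045 with removal within 50 nt, 823 and 740 with the score minimum, 1047 with at least 2 sites and 202 with at least 5. The alternatives with the score minimum in the UV lists alone, without short RNA genes, without chromosome Y and with windows found once were chosen after seeing the data. With unknown depth, a position missing from a list may be one too shallow to call.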
